A study of Mus musculus with 12 samples.

Results

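Obox1, Obox2, Obox3, Obox5, Obox6 and Crxos are homeobox genes of one cluster on mouse chromosome 7, and their transcripts were followed in 8-cell embryos depleted of the transcription factors NR5A2, KLF5 or both. The 6 genes were picked by name from the 55401 genes counted in each of 12 RNA-seq libraries. All 6 passed the filter on low counts and were tested in each comparison.

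Zygotes of superovulated B6129F1 females (3 to 5 weeks old) mated with B6CBAF1 males were injected with small interfering RNA (siRNA), which lowers a target mRNA without deleting its gene, and were grown in KSOM medium to the 8-cell stage. Control embryos (n = 2 libraries) received non-targeting siRNA at 15 µM, Nr5a2 knockdown (KD) embryos (n = 3) received Nr5a2 siRNA at 5 µM, and Klf5 KD embryos (n = 3) received Klf5 siRNA at 10 µM. Double knockdown (dKD) embryos (n = 4) received both siRNAs, at concentrations that the labels do not give separately. H2B-EGFP at 150 ng/µl was co-injected in every group as the marker of injection, and each library was made from a pool of 10 whole embryos, so single embryos and single cells were not resolved.

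The Obox (oocyte-specific homeobox) genes encode divergent homeodomain proteins of the PRD class and occur in rodents as a large tandem array beside Crx, the photoreceptor homeobox gene. Obox1, Obox2 and Obox5 are known as maternal transcripts loaded into the oocyte, whereas Obox3 is known as a gene switched on when the embryonic genome is first activated, and the family is known for its part in that activation. Crxos is a neighbouring homeobox gene named for its place on the strand opposite Crx. NR5A2 is an orphan nuclear receptor that binds DNA as a monomer, and KLF5 is a zinc-finger factor needed for the trophectoderm and epiblast.

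In genome build GRCm38, which the count tables use, all 6 genes are annotated as protein coding on chromosome 7. Obox1 (ENSMUSG00000054310) spans chr7:15388948-15556866 and Obox2 (ENSMUSG00000074369) spans chr7:15388721-15398545, both on the plus strand. Obox3 (ENSMUSG00000066772) spans chr7:15479825-15639902 on the minus strand, and Obox5 (ENSMUSG00000074366) spans chr7:15750131-15759800 on the plus strand. Obox6 (ENSMUSG00000041583) lies at chr7:15833241-15839678 on the minus strand, and Crxos (ENSMUSG00000074365) lies at chr7:15882617-15904020 on the plus strand. The exons of Obox1 and Obox2 share 59 bases, and no other exon overlap with any gene was found for the 6 genes.

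The copies resemble each other closely, which bears on what short reads can tell apart. Of all 50-base stretches in annotated transcripts, 57.4% of those of Obox1 and 65.2% of those of Obox2 also occur in another gene, mostly in each other. The share was 20.2% for Obox3, chiefly with Obox3 pseudogenes, 18.1% for Obox5, 18.5% for Crxos and 5.02% for Obox6. The authors' counting left out reads that align to several places, so the counts of Obox1 and Obox2 rest on less than the whole transcript and may still hold reads of the other copy. Obox6 was the member least exposed to this, with no 100-base stretch in common with another gene, and Crxos shared most with E530001F21Rik.

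The likeness reaches into the promoters. RefSeq windows on build GRCm38.p6 (300 bases, from 250 before to 50 after a start site) were found for 5 of the 6 genes. They are shown for the Obox genes because the reads of these copies are hard to separate. In the windows of Obox1 (chr7:15547007-15547306, plus strand), Obox3 (chr7:15639728-15640027, minus strand) and Obox5 (chr7:15750120-15750419, plus strand), capitals mark a run of 42 bases that is identical in the 3 windows and crosses the start site.

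Obox1: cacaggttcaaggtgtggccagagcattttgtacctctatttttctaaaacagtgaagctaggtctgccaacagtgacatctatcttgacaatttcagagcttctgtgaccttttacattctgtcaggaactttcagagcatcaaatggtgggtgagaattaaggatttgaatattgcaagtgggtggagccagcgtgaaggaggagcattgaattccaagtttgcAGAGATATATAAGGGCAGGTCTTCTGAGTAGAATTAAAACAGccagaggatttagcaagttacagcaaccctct

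Obox3: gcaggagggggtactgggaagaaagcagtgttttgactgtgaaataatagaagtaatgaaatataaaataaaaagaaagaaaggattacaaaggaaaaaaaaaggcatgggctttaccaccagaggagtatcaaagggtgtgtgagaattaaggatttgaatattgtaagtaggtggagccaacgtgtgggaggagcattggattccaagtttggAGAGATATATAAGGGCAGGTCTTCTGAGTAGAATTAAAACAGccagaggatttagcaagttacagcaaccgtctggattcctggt

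Obox5: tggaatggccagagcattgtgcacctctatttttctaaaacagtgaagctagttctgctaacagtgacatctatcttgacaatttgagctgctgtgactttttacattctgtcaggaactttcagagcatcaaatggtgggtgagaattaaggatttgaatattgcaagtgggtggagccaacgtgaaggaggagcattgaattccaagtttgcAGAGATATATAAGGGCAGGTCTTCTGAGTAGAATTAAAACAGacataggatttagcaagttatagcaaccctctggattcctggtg

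In the window of Obox2 (chr7:15388601-15388900, plus strand), capitals mark the 203 bases that also occur without a mismatch in the window of Obox1.

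Obox2: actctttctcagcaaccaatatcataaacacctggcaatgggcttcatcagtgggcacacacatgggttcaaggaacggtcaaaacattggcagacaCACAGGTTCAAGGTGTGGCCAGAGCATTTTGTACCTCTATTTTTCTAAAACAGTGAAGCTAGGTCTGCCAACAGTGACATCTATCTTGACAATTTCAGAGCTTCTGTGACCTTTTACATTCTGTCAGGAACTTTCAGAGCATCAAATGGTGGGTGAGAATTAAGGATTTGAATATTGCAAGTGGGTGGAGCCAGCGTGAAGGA

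Crxos has 3 RefSeq windows. The one at chr7:15901396-15901695 (plus strand) is shown because it was the only Crxos window with a match to any motif searched, and capitals mark TCAAGG read on the opposite strand, 131 bases before the start site.

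Crxos: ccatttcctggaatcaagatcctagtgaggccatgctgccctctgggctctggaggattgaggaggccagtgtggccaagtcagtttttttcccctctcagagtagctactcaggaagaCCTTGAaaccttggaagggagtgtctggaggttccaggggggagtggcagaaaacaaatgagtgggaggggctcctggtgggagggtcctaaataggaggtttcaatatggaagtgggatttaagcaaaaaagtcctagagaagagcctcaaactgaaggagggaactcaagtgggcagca

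Both strands of all windows were searched for 4 short motifs, of which TCAAGG was chosen after the windows had been seen. AAGGTCA, the core bound by NR5A receptors, occurred in the Obox1 and Obox2 windows, in a stretch that they share, and in 4.72% of all 32851 windows. Its variant AAGGCCA occurred in none of the 7 windows and in 6.2% of all windows. TCAAGG, the 5' part of the longer NR5A2 site, occurred in the windows of Obox1, Obox2 and Crxos and in 14.4% of all windows. TAATCC, the motif of Crx-like and Otx-like homeodomains, occurred in the Obox3 window at position -168 from the start, and in 7.06% of all windows. TCAAGG and AAGGTCA can overlap, since the longer site holds both. A match describes the letters of the window, and binding was not measured in these libraries.

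Per length, the 6 genes fell into a pair of very abundant transcripts and a set of 4 that stood far lower. In control embryos Crxos reached 2817 ± 257 (SD, n = 2) CPM per kilobase of exon, where CPM are counts scaled to a common library size, rank 27 of the 14830 genes that passed the filter over all libraries, and Obox6 reached 1820 ± 466, rank 44. On the same scale Obox2 (2.97 ± 0.567, rank 6832) and Obox5 (2.38 ± 1.24, rank 7454) stood near the middle of these genes, and Obox1 (1.59 ± 0.787, rank 8633) and Obox3 (0.399 ± 0.475, rank 12350) below it. In this order Obox2 overlapped with Obox5 and Obox5 with Obox1, whereas Obox3 (0.0629 and 0.735) lay below both Obox1 libraries. Crxos and Obox6 did not overlap with each other in controls (lowest Crxos library 2635, highest Obox6 library 2150). Obox6 and Crxos together held between 99.1% and 99.9% of the counts of the 6 genes in each library.

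The order of the abundant pair was the reverse in the groups with Nr5a2 siRNA. In Nr5a2 KD embryos Obox6 came first (2162 ± 248, n = 3, rank 31) and Crxos second (1061 ± 326, rank 77), and in dKD embryos Obox6 (2052 ± 213, n = 4, rank 26) again stood above Crxos (913 ± 188, rank 83). Klf5 KD embryos kept the control order, with Crxos at 3047 ± 134 (n = 3) and Obox6 at 1866 ± 381. The ratio of Crxos CPM to Obox6 CPM was 2.7 and 4.43 in the controls and 3.16 to 4.78 in Klf5 KD. It was 0.81 to 1.39 in Nr5a2 KD and 0.768 to 1.34 in dKD, with no overlap between libraries with and without Nr5a2 siRNA.

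**Figure D1:**
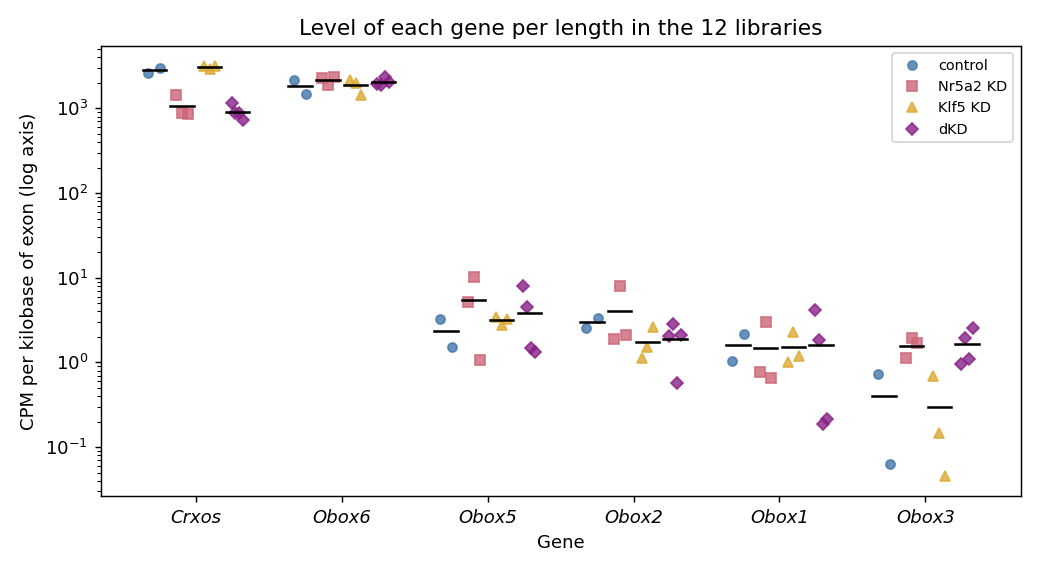
Level of each gene in CPM per kilobase of exon, on a log axis, with 1 point per library and a black bar at each group mean. Crxos and Obox6 lie between 723 and 3127 in all 12 libraries, and the other 4 genes lie at or below 10.2.

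Depth was 6676683 to 12560926 counts in genes per library, and the 4 scarce genes rest on 1 to 159 counts in a library. Nr5a2 itself stood at 225 and 210 CPM in controls, 24.1 to 38.8 in Nr5a2 KD, 25.2 to 33.8 in dKD and 117 to 255 in Klf5 KD. Klf5 stood at 444 and 466 CPM in controls, 72.7 to 144 in Klf5 KD and 39.9 to 82 CPM in the dKD libraries, but also only 109 to 158 in Nr5a2 KD, so the Nr5a2 KD libraries were low in both targets. Mitochondrially encoded genes took 4.41% to 13.2% of counts, and 4 libraries (Klf5 KD replicate 1, Nr5a2 KD replicate 3, dKD replicates 3 and 4) were under 8%, whereas the controls held 13.2% and 12.9%. Of the 12 cumulus cell markers 3 had no count in any library and their summed level was 0.224 to 11.7 CPM, and none but Kitl exceeded 16 counts in a library (Star in dKD). Kitl, which encodes KIT ligand, was the only one of them that could be tested. It stood at 1.66 and 2.81 CPM in controls, 0.626 to 10.4 in Nr5a2 KD, 1.53 to 4.16 in dKD and 0 to 0.879 in Klf5 KD. Kitl was called higher in dKD than in Klf5 KD (3.34, adjusted p = 0.0267, edgeR), where no Klf5 KD library was above 6 counts. There it passed the filter on low counts only through dKD and so had to differ, and its call is no evidence. The 5 sperm markers summed to 0.283 to 2.81 CPM. The 8 markers of 8-cell embryos summed to 262 and 284 CPM in controls, 238 to 317 in Klf5 KD, 169 to 207 in Nr5a2 KD and 197 to 231 in dKD. Of these 8, all but Cdx2 and Sox2 had counts in every library. Cdx2 had at most 7 counts and was at 0 in 2 Nr5a2 KD, 2 Klf5 KD and all 4 dKD libraries. Sox2 had at most 7 counts and was at 0 in all 7 libraries with Nr5a2 siRNA, in 1 control and in 1 Klf5 KD library. The 10 oocyte markers summed to 130 and 139 CPM in controls and 75.7 to 142 in the knockdown libraries, and 1 of the 9 tested, Nlrp5, was called against control.

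A gene was called changed at an adjusted p below 0.05 and a change of at least 2-fold in edgeR's quasi-likelihood test on all genes. In Nr5a2 KD against control, 1 of the 6 genes was called lower (Crxos) and none higher, where 4.42% of all 13262 genes tested were called lower. The median log2 fold change of the 6 genes was 0.36, beside 0.04 over all genes. In dKD against control, 1 of the 6 was again lower (Crxos), beside 3.85% of 13724 genes, and the median of the 6 was 0.12 beside 0.05 over all genes. In Klf5 KD against control, edgeR called 0 of the 6 genes and 0 of all 12838 genes (0%), and DESeq2 called 0 of the 6 and, of all genes, 42 lower and 8 higher. None of the 6 had an unadjusted p under 0.05 there, where 8.47% of all genes did, and none had groups without overlap, where 14.4% of all genes lay lower and 12.6% higher. In dKD against Nr5a2 KD, edgeR and DESeq2 again called 0 of the 6 genes, and over all genes edgeR called 0% and DESeq2 called 4 genes. None of the 6 had groups without overlap there (2.43% of all genes lower, 2.34% higher), with 0 of the 6 at an unadjusted p under 0.05 beside 3.43% of all genes. The share of all genes with an unadjusted p under 0.05 was 24.1% in Nr5a2 KD and 25% in dKD against control, where 2 of the 6 genes (Crxos and Obox3) had one. The comparisons with control share the same 2 control libraries and are therefore not independent of each other.

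**Figure D2:**
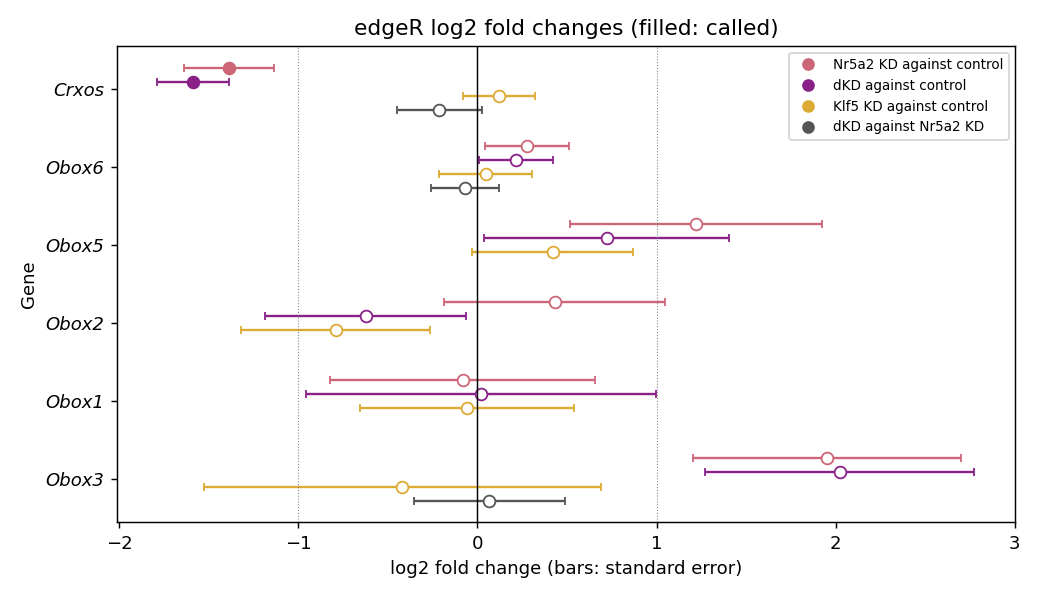
edgeR log2 fold change of each gene (x axis) with its standard error, for 3 comparisons with control and, for Crxos, Obox6 and Obox3, dKD against Nr5a2 KD. Filled points passed the call, and they are the values of Crxos in Nr5a2 KD (-1.39) and dKD (-1.59), and dotted lines mark a 2-fold change.

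Crxos, the most abundant of the 6 in control embryos, fell in every library that received Nr5a2 siRNA. The control libraries held 7789 and 8865 CPM, and the Nr5a2 KD libraries 4249, 2625 and 2536 CPM. The dKD libraries held 3464, 2581, 2611 and 2137 CPM. The highest of these 7 libraries was below the lowest control, and groups without overlap in this direction were seen in 22.5% of genes for Nr5a2 KD and 19.3% for dKD. The mean of Nr5a2 KD (3137 ± 965 CPM) was 37.7% of control (8327 ± 761 CPM), a log2 fold change of -1.39 ± 0.25 (SE, adjusted p = 0.00629, edgeR). The mean of dKD (2698 ± 554 CPM) was 32.4% of control, a log2 fold change of -1.59 ± 0.20 (adjusted p = 0.00177). The summed 8-cell markers given above were also below both controls in all 7 of these libraries. Of the 6 that could be tested, 1 was called in Nr5a2 KD, Tead4, a factor of the trophectoderm (-1.01, adjusted p = 0.0393), and none in dKD, where Tead4 was at -0.77 (adjusted p = 0.0426), under 2-fold. In both groups 5 of the 6 were below 0, with medians of -0.68 and -0.56. In Nr5a2 KD Tfap2c was at -0.99 (adjusted p = 0.0246), just under 2-fold, and Nanog at -1.20 (adjusted p = 0.0607), and in dKD they were at -0.62 (adjusted p = 0.0957) and -1.62 (adjusted p = 0.115). Klf17, the one above 0, was at 0.29 in Nr5a2 KD (adjusted p = 0.499) and 0.65 in dKD (adjusted p = 0.130). The oocyte marker Nlrp5, of the subcortical maternal complex, was at -1.01 in Nr5a2 KD (adjusted p = 0.0823) and was called lower in dKD (-1.17, adjusted p = 0.0324). Of the 9 oocyte markers tested, 7 were below 0 and 2 above in each group, with medians of -0.40 and -0.39. Padi6 was at -0.38 in both groups (adjusted p = 0.576 and 0.509), and Gdf9 was at 0.16 and 0.10. The part of these markers in the Crxos values was not tested. Because these are pools of whole embryos, fewer cells of a type and less RNA per cell cannot be told apart. Leaving out either control ended the Nr5a2 KD call: the value was -1.49 (adjusted p = 0.0501) with replicate 1 removed and -1.29 (adjusted p = 0.0877) with replicate 2 removed, where a single control library remains and is assumed to vary like the others. Library sizes from the ERCC spike-in RNA moved the all-gene log2 median against control to 0.82 (Nr5a2 KD), 0.84 (dKD) and 0.66 (Klf5 KD). With them neither call against control held: the log2 fold change was -0.63 (adjusted p = 0.187) in Nr5a2 KD and -0.82 (adjusted p = 0.0329, under 2-fold) in dKD. The Crxos calls in comparisons with Klf5 KD held in all 11 alternative settings, ERCC sizes included. Their values were -1.79 to -1.52 in dKD against Klf5 KD and 1.35 to 1.55 in Klf5 KD against Nr5a2 KD.

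Klf5 siRNA alone left Crxos near the control level. The Klf5 KD libraries held 9227, 8548 and 9244 CPM, of which 1 lay between the controls and the others above both. The log2 fold change against control was 0.12 ± 0.20 (adjusted p = 0.906), with a 95% interval of -0.28 to 0.51. Adding Klf5 siRNA to Nr5a2 siRNA gave -0.21 ± 0.24 against Nr5a2 KD alone (adjusted p = 0.999), with an interval of -0.68 to 0.25, so a change of the size seen against control was outside this interval. The test of departure from the sum of both single knockdowns gave -0.33 (adjusted p = 0.957), which did not pass. In that test edgeR and DESeq2 called 0 of the 6 genes, DESeq2 called 3 of all genes and edgeR 0% of all 14830, with 0 of the 6 at an unadjusted p under 0.05 beside 4.82% of all genes.

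Libraries with and without Nr5a2 siRNA also differed when the 3 Klf5 KD libraries stood in for the controls. Crxos was lower in dKD than in Klf5 KD by a log2 fold change of -1.73 ± 0.20 (adjusted p = 0.000324), and an exact two-sided permutation test of the CPM gave p = 0.0286, the smallest that 4 against 3 libraries allow. It was higher in Klf5 KD than in Nr5a2 KD by 1.51 ± 0.26 (adjusted p = 0.00253). The exact test reached its smallest p for Nr5a2 KD (0.1) and dKD (0.0667) against control as well, and these group sizes cannot go below 0.05. In dKD against Klf5 KD, 1 of the 6 genes was called lower (background 5.41% of 12904 genes) and 1 higher (5.38%). In Klf5 KD against Nr5a2 KD, 1 was called lower (5.6% of 12668 genes) and 1 higher (5.83%). The other gene called in both was Obox3, which passed the filter on low counts only through the group where it is high. The same pair had an unadjusted p under 0.05 in both, beside 26.6% and 25.9% of all genes. The groups of both genes did not overlap in either, where 12.6% of genes lay wholly lower and 12.3% wholly higher in dKD than in Klf5 KD, and 15.2% and 15.7% in Klf5 KD than in Nr5a2 KD.

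**Figure D3:**
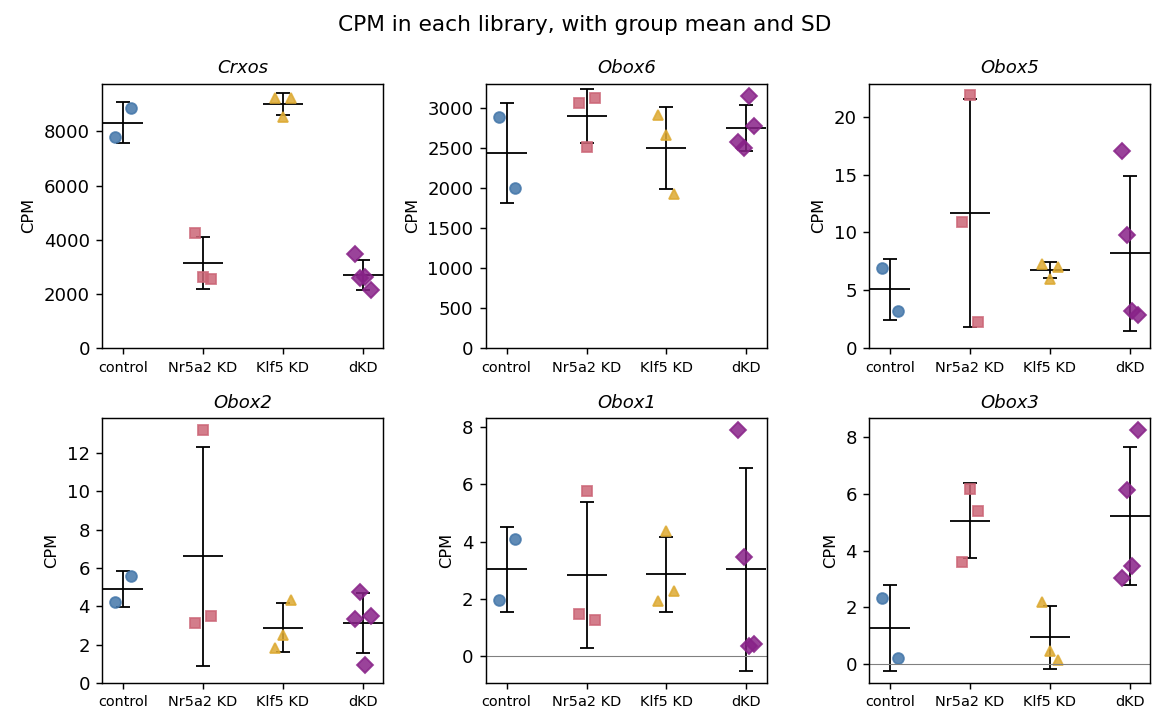
CPM of each gene in each library (points) with the group mean and SD (bars), on linear axes that include 0. Crxos in Nr5a2 KD and dKD (2137 to 4249 CPM) lies below all control and Klf5 KD libraries (7789 to 9244 CPM), whereas the Obox6 groups overlap.

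Obox6, a member known from cleavage-stage embryos, is the closest of the 6 genes to Crxos, and its level did not pass the test in any comparison. The controls held 2889 and 2003 CPM, Nr5a2 KD 3064, 2523 and 3131 CPM, and Klf5 KD 2918, 2672 and 1934 CPM. The dKD libraries held 2585, 2511, 3150 and 2783 CPM. All 4 groups overlapped, and the spread between the control libraries alone (SD 627 CPM around 2446) was wider than any difference between group means. The log2 fold changes against control were 0.28 ± 0.24 in Nr5a2 KD (adjusted p = 0.524), 0.22 ± 0.21 in dKD (0.570) and 0.05 ± 0.26 in Klf5 KD (0.974). The interval for Nr5a2 KD was -0.18 to 0.74, which leaves out a fall of the size of that of Crxos. With ERCC library sizes Obox6 was called higher in dKD (1.01, adjusted p = 0.0455), as was Obox3 (2.81, adjusted p = 0.0364).

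Obox3, the member switched on at genome activation, was the scarcest of the 6 in control embryos and was higher in the libraries with Nr5a2 siRNA. It had 15.5 and 1.5 counts in the controls and 24.5, 4 and 1 counts in Klf5 KD. Nr5a2 KD held 30.5, 45 and 43 counts, and dKD held 24, 43.5, 29.5 and 70 counts. In CPM, Nr5a2 KD (3.59 to 6.18) and dKD (3.03 to 8.24) lay above both controls (2.34 and 0.201) and above all Klf5 KD libraries (0.147 to 2.2). Groups without overlap in this direction were seen in 19.9% of genes for Nr5a2 KD against control and in 17% for dKD against control.

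The tests on Obox3 differed by the group it was set against. Against control the log2 fold changes were 1.95 ± 0.75 in Nr5a2 KD (adjusted p = 0.131) and 2.02 ± 0.75 in dKD (adjusted p = 0.120), which did not pass. Against Klf5 KD, dKD was higher by 2.41 ± 0.69 (adjusted p = 0.0364), and Klf5 KD was lower than Nr5a2 KD by -2.35 ± 0.70 (adjusted p = 0.0415). In these comparisons Obox3 passed the filter on low counts only through the group where it is high, since 1 of the 3 Klf5 KD libraries and 1 of the 2 controls reached the minimum. With no filter at all the value against Klf5 KD was 2.38 (adjusted p = 0.00109) in dKD, and Klf5 KD against Nr5a2 KD was at -2.33 (adjusted p = 0.00377). That fit called more of all genes: 912 lower and 936 higher in dKD against Klf5 KD, beside 698 and 694 with the filter. In Klf5 KD against control it called 69 and 45, beside 0 and 0. It uses the same few counts, so its smaller p is no stronger evidence. The dKD against Klf5 KD call was lost without Klf5 KD replicate 2 (adjusted p = 0.150), Klf5 KD replicate 3 (0.0883), dKD replicate 2 (0.0746) or dKD replicate 4 (0.0994). The Klf5 KD against Nr5a2 KD call was lost when any library other than Klf5 KD replicate 1 was left out. Without control replicate 1 the log2 fold change against control was 4.17 in Nr5a2 KD (adjusted p = 0.0468) and 4.25 in dKD (adjusted p = 0.0749), against a control library with 1.5 counts. Between Klf5 KD and control the value was -0.42 ± 1.11 (adjusted p = 0.946), or -3.80 (adjusted p = 0.864) once mitochondrial share was a covariate. Between dKD and Nr5a2 KD it was 0.07 ± 0.42 (adjusted p = 0.999).

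Annotated Obox3 pseudogenes share stretches of sequence with Obox3, and their counts were read beside it. Among all counted genes, 50 others are named Obox, of which 48 are not protein coding and 34, all of them Obox4 loci, had no count in any library. Obox3 summed with the 8 Obox3 pseudogenes gave 11.9 and 8.57 CPM in controls and 16.2, 16.5 and 11.3 CPM in Klf5 KD. The sum was 26.8, 37.2 and 30.5 CPM in Nr5a2 KD and 42.8, 35.5, 54.8 and 74.1 CPM in dKD, above all libraries without Nr5a2 siRNA. It was formed after the values had been seen, holds Obox3 itself and was not tested, so it is no separate evidence. Of all genes, 19.9% lay wholly higher in Nr5a2 KD than in control, and 17% in dKD.

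**Figure D4:**
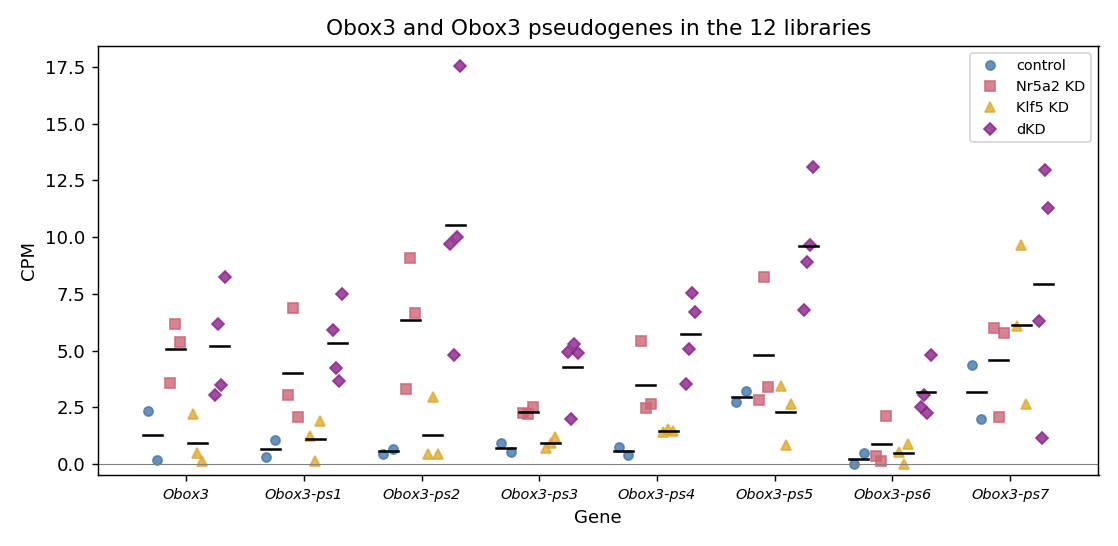
CPM of Obox3 and of the 7 Obox3 pseudogenes that passed the filter, with 1 point per library and a black bar at each group mean. For Obox3-ps2 all Nr5a2 KD and dKD libraries (3.29 to 17.6 CPM) lie above all control and Klf5 KD libraries (0.439 to 2.95 CPM), and Obox3-ps7 overlaps in every group.

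The pseudogenes are described one by one, because most of them passed the filter on low counts only through the group where they are high. The filter asked for a minimum CPM in as many libraries as the smaller group holds, and a gene that meets it in the higher group alone had to differ, so the number called is no evidence about the set. In Nr5a2 KD against control 1 of the 9 other Obox genes tested was called higher, beside 3.45% of all genes. It was Obox3-ps2 (3.48 ± 0.69, adjusted p = 0.0100), which had 3 and 5 counts in the controls and passed through Nr5a2 KD alone. Its call held in 3 of 5 fits that leave out a library, and the number called was 0 to 3 over them. In dKD against control Obox3-ps1 to Obox3-ps6 were called higher of 10 tested, beside 3.38% of all genes. Their log2 fold changes ran from 1.73 (Obox3-ps5, adjusted p = 0.0249) to 4.22 (Obox3-ps2, adjusted p = 0.00457). Of these 6, all but Obox3-ps5 passed through dKD alone, with no control library at the minimum. In dKD against Klf5 KD the same 6 and Obox4-ps35 (1.85, adjusted p = 0.0246) were called higher of 10 tested, beside 5.38% of all genes. All but Obox4-ps35 passed through dKD alone. In Klf5 KD against control edgeR called 0 of the 6 tested, of which 1 (Obox8) had an unadjusted p under 0.05, beside 8.47% of all genes. The number called in dKD against control was 0 without either control library, 2 without dKD replicate 4, and 4 to 7 without another dKD library. In dKD against Klf5 KD the number was 3 to 6 with any library left out. With only the libraries over 8% mitochondrial share it was 2 in dKD against control and 0 in dKD against Klf5 KD. Obox3 shares 14.5% of its 50-base stretches with Obox3-ps3 and 9.29% with Obox3-ps2, and how far reads were assigned to the wrong copy was not tested.

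Of the other protein-coding Obox genes, Obox8 was the abundant one. It stood at 552 and 685 CPM in controls, 759, 838 and 819 CPM in Nr5a2 KD, 443, 416 and 420 CPM in Klf5 KD, and 618 to 855 CPM in dKD. Obox8 was higher in dKD than in Klf5 KD by 0.79 ± 0.20 (adjusted p = 0.0212) and lower in Klf5 KD than in Nr5a2 KD by -0.93 ± 0.23 (adjusted p = 0.0166), both under 2-fold. Against control it did not pass in any knockdown. Obox7, a maternal member, had 3 to 17 counts per library. Crx, on the strand opposite Crxos, had 2 to 30.5 counts and did not pass against control (adjusted p = 0.678 in Nr5a2 KD and 0.896 in dKD).

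Obox5, Obox1 and Obox2, the maternal members, varied widely among the libraries of Nr5a2 KD and dKD, and none was called against control. Obox5 had 46 and 24 counts in controls, 93, 159 and 18 in Nr5a2 KD, 81, 50.5 and 48 in Klf5 KD, and 135, 69, 27 and 24 in dKD. The low libraries of Nr5a2 KD and dKD are those with a mitochondrial share under 8%. In the 7 libraries with Nr5a2 siRNA, Obox5 was 9.76 to 21.9 CPM in the 4 with a share of 10.4% to 12.8%, and 2.26 to 3.18 CPM in the 3 with a share of 6.17% to 6.75%. Klf5 KD replicate 1, with the lowest share of all (4.41%), held 7.27 CPM and did not follow this.

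The calls on Obox5 moved with the same libraries. Over all libraries the log2 fold changes against control were 1.22 ± 0.70 in Nr5a2 KD (adjusted p = 0.324), 0.72 ± 0.69 in dKD (0.569) and 0.42 ± 0.45 in Klf5 KD (0.828). With the mitochondrial share as a covariate Obox5 was called higher in Nr5a2 KD (2.47, adjusted p = 0.0117). The controls held shares of 13.2% and 12.9%, so that fit rests mainly on the spread among the Nr5a2 KD libraries. Without Nr5a2 KD replicate 3, the lowest in Obox5, which also leaves the 2 libraries over 8%, the value was 1.72 (adjusted p = 0.0354). In dKD Obox5 stayed uncalled in 10 of 11 alternatives, the covariate and the fit over 8% among them. The replicate block was the exception. With only the libraries over 8%, Crxos was at -1.25 in Nr5a2 KD (adjusted p = 0.00292) and -1.43 in dKD (adjusted p = 0.00300), both called. Obox3 was 3.03 to 6.18 CPM and 3.48 to 8.24 CPM in the high-share and low-share libraries with Nr5a2 siRNA. The part of the mitochondrial share in the Obox5 values was not tested beyond these fits.

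**Figure D5:**
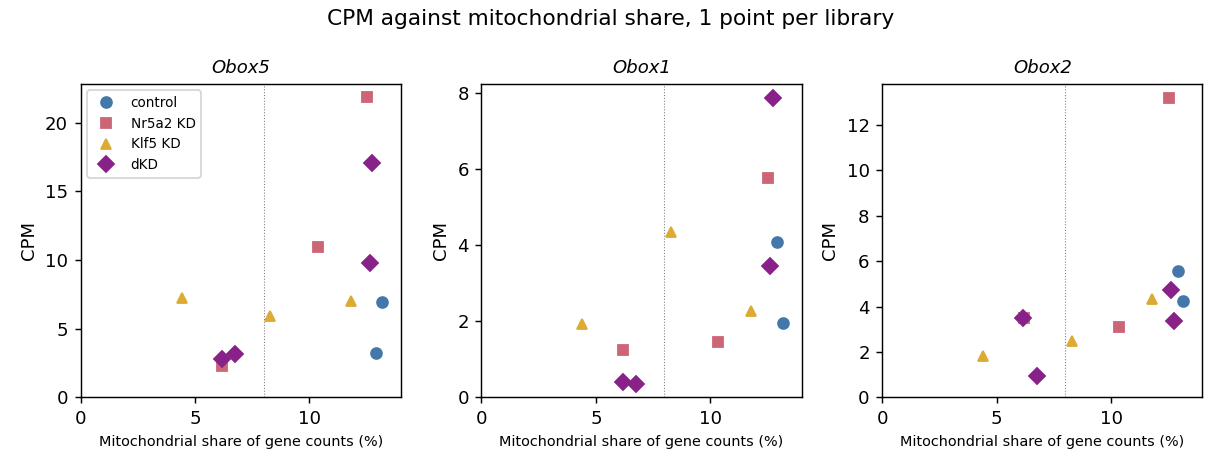
CPM of Obox5, Obox1 and Obox2 against the percentage of gene counts on mitochondrially encoded genes, with 1 point per library and a dotted line at 8%. The 3 libraries with Nr5a2 siRNA left of the line hold 2.26 to 3.18 CPM of Obox5, and the 4 right of it hold 9.76 to 21.9 CPM.

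Obox1 had 13 and 30.5 counts in controls, 12.5, 42 and 10 in Nr5a2 KD, 21.5, 37 and 15.5 in Klf5 KD, and 62.5, 24.5, 3 and 3.5 in dKD. The dKD group held both the highest and the lowest library, and its mean (3.03 ± 3.55 CPM) stood beside 3.02 ± 1.5 CPM in control. In the libraries with Nr5a2 siRNA Obox1 was 1.47 to 7.88 CPM in the 4 over 8% mitochondrial share and 0.353 to 1.25 CPM in the 3 under it, without overlap, as for Obox5. Of all 14830 genes, 11.9% lay wholly higher in the same 4 libraries than in the other 3. Obox2 overlapped between the same libraries, at 3.12 to 13.2 CPM and 0.942 to 3.51 CPM. The log2 fold changes against control were -0.08 ± 0.74, 0.02 ± 0.98 and -0.06 ± 0.60 in Nr5a2 KD, dKD and Klf5 KD. At these counts a change of 2-fold in either direction could not be told from none: the interval in dKD was -1.89 to 1.93.

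Obox2, most of whose 50-base stretches occur in other genes, had 28 and 41.5 counts in controls, 26.5, 96 and 28 in Nr5a2 KD, 20.5, 21 and 29.5 in Klf5 KD, and 26.5, 33.5, 8 and 29.5 in dKD. Nr5a2 KD replicate 2 stood above all other libraries, and leaving it out turned the log2 fold change from 0.43 ± 0.62 to -0.55. The values were -0.62 ± 0.56 in dKD and -0.79 ± 0.53 in Klf5 KD, with adjusted p of 0.542 and 0.688. Between the knockdown groups Obox1, Obox2 and Obox5 had adjusted p from 0.218 to 0.999, and none was called.

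The genes whose log2 CPM over the 12 libraries was most like that of each member are given as a description. For Crxos they were Khdc3, a subunit of the subcortical maternal complex (Pearson r = 0.989), Olfr1270 (0.980) and Gulo (0.978). Khdc3 stood at 90.9 and 105 CPM in controls, 11.7 to 23.9 in Nr5a2 KD, 6.95 to 17.2 in dKD and 122 to 154 in Klf5 KD, so it separated the same libraries as Crxos. For Obox6 they were Hsd17b6 (0.897), Sap18b (0.893) and Psmf1 (0.878), and for Obox3 Cenpt (0.951), Magea10 (0.942) and Gsta3 (0.940). For Obox5 they were Nudt7 (0.906), Car5a (0.886) and Slc29a2 (0.878). Obox1 came closest to Fgf4 (0.929), Gm10436 (0.886) and Zbed3 (0.874), and Obox2 to Ids (0.914), Gm47438 (0.869) and Slc25a46 (0.859). The libraries fall into groups, and the closest genes were picked from 14830, so these values stand without a test.

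Other PRD-class and early-embryo homeobox genes moved in both directions. Of 34 listed, 32 are in the tables and 11 could be tested in Nr5a2 KD against control, where 1 was called lower and 2 higher, beside 4.42% and 3.45% of all genes. Rhox9, an X-linked homeobox gene, fell (-2.93 ± 0.61, adjusted p = 0.0129), while Gsc, the goosecoid homeobox gene of gastrulation (3.30 ± 0.31, adjusted p = 0.000321), and Hesx1, a homeobox repressor of forebrain and pituitary development (1.42 ± 0.38, adjusted p = 0.0386), rose. In dKD against control 2 of 11 were lower, Rhox9 (-3.57, adjusted p = 0.0153) and Uncx (-3.01, adjusted p = 0.0193), beside 3.85% of all genes. The same pair was higher, Gsc (2.65, adjusted p = 0.00284) and Hesx1 (1.23, adjusted p = 0.0421), beside 3.38% of all genes. Uncx stood at 0.236 to 0.707 CPM in dKD, where the filter asked for 1.32 CPM, and at 3.01 CPM or more in controls. It passed through the controls alone and so had to differ, and its call is no evidence. edgeR called none of 10 in Klf5 KD against control, where 4 had an unadjusted p under 0.05 (8.47% of all genes) and Gsc had the lowest unadjusted p of the list (0.00408, log2 fold change -2.24). The median log2 fold change of the list was 0.39 in Nr5a2 KD and -0.53 in dKD. Hesx1 kept its call in 1 of the 5 fits that leave out a library in Nr5a2 KD and in 1 of 6 in dKD, where Uncx kept its call in 4 of 6 and Rhox9 in 5 of 6. The number called in dKD was 1 to 6 with a library left out.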

How the data were processed

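Pools of 10 embryos were sequenced (SMART-seq v4, Nextera XT). The authors trimmed reads (Trim Galore 0.6.2), aligned them with STAR to GRCm38 and deposited expected counts per gene made with featureCounts 2.0.1, unstranded, with fractional counts for reads on overlapping genes and without multiply aligned reads. Per library 7.30% to 8.66% of values were not whole, and values were rounded before tests.

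Each pair of groups was compared with edgeR 4.0.16 (quasi-likelihood test, TMM library sizes, filterByExpr) in R 4.3.3, with Benjamini-Hochberg adjustment over all genes tested. A call needed an adjusted p below 0.05 and a 2-fold change. The 95% intervals are 1.96 standard errors either side, a normal approximation that is narrower than the quasi-likelihood test allows with so few libraries. For Obox2 in Klf5 KD against Nr5a2 KD it was -2.39 to -0.049, beside an unadjusted p of 0.0604 in edgeR. CPM are counts scaled to the TMM library size by edgeR. Single values were also compared by exact two-sided permutation tests (scipy 1.17.1). Scripts were tested on simulated data. Alternatives were DESeq2 1.42.0, other library sizes and filters, all 12 libraries in 1 fit, a replicate block, unrounded counts, the mitochondrial share as a covariate and each library left out. A fit of libraries over 8% mitochondrial share was added after seeing the data. All 6 genes were named in each comparison, whatever their values, and the members and lists were chosen with earlier results of these data known.

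Libraries are separate pools per the labels, so p-values measure only the spread between these samples, which may be technical. Same-numbered Nr5a2 KD and dKD libraries deviated together (correlations 0.130, 0.221 and 0.254), although Nr5a2 KD replicate 3 correlated as much with dKD replicate 4 (0.264), which shares its low mitochondrial share, and the block changed no call on the 6 genes there. No amino acid sequences were used here.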

Additional observations from a re-analysis of the deposited data

How the results depend on the processing

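Of 312 values of single genes under alternatives 280 kept direction and side of the threshold, 5 lost a call, 7 gained one and 20 changed sign. With a library left out these were 152, 11, 2 and 26 of 191. No changed sign had an adjusted p below 0.488.

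The number of the 6 genes called in Nr5a2 KD against control was 0 with ERCC library sizes and 2 with no filter, with the mitochondrial covariate and with libraries over 8%, and 0 to 2 with a library left out. In dKD against control it was 2 with ERCC sizes (Obox3 and Obox6), no filter or the replicate block. In dKD against Klf5 KD it was 1 with ERCC sizes, a mean of at least 50 or the block, and in Klf5 KD against Nr5a2 KD 1 with ERCC sizes or a mean of at least 50, both 1 to 2 with a library left out. The block, a pairing by number that only Nr5a2 KD and dKD bear out, gave Obox5 1.46 (adjusted p = 0.0385, edgeR) in dKD against control. ERCC sizes turned calls over all genes from 586 lower and 457 higher to 90 and 761 in Nr5a2 KD, and from 529 and 464 to 178 and 2838 in dKD. No filter called Obox3 in Nr5a2 KD (1.95, adjusted p = 0.0438) and dKD (2.01, 0.0231). Over all genes that fit called 751 lower and 707 higher in Nr5a2 KD, and 792 and 795 in dKD.

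Changed signs were, in Nr5a2 KD against control, Obox1 at 0.022 (total counts), 0.52 (ERCC), 0.088 (block), 0.72 (covariate) and 0.27 (over 8%). In dKD against control they were Obox2 at 0.13 (ERCC) and Obox1 at -0.00466 (all 12 libraries). In Klf5 KD against control they were Obox6 at -0.0019 (total counts), -0.40 (covariate) and -0.10 (over 8%), Obox1 at 0.66 (ERCC), 0.080 (block), 0.084 (covariate) and 0.15 (over 8%), and Obox3 at 0.30 (ERCC) and 0.19 (block). In dKD against Nr5a2 KD Obox3 was at -0.27 (block) and -0.071 (over 8%), and in the interaction Obox3 was at -0.17 (ERCC) and Obox6 at 0.14 (covariate).

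With a library left out, Nr5a2 KD against control ranged from -1.13 to 0.53 (Obox1) and -0.55 to 0.79 (Obox2), and dKD against control from -1.09 to 0.63 (Obox1) and -0.017 to 0.50 (Obox6). Klf5 KD against control ranged from -0.47 to 0.57 (Obox1), -1.27 to 1.84 (Obox3), -0.023 to 1.09 (Obox5) and -0.18 to 0.36 (Obox6). In dKD against Nr5a2 KD the ranges were -0.24 to 0.26 (Obox3), -0.17 to 0.00211 (Obox6) and -0.35 to 0.058 (Crxos), in dKD against Klf5 KD -0.034 to 0.29 (Obox6), and in the interaction -1.76 to 2.04 (Obox3) and -0.40 to 0.13 (Obox6). The causes were not tested. Counts of at most 159 limit Obox1, Obox2, Obox3 and Obox5.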

Other observations

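Other genes known from the 2-cell stage were also listed. Of 32 listed, 29 are in the tables and 16 could be tested in Nr5a2 KD against control. There Btg1, an anti-proliferative gene, fell (log2 fold change -2.01, adjusted p = 0.00234, edgeR) and Gm5662 rose (1.54, adjusted p = 0.0315), beside 4.42% of all genes lower and 3.45% higher. The call on Gm5662 held in 1 of 5 fits that leave out a library and in 7 of 11 other alternatives. The median of the list was 0.15 beside 0.04 over all genes. In dKD against control 18 could be tested, and the median was 0.42 beside 0.05. Btg1 fell (-1.74, adjusted p = 0.0133) and Zfp352, a zinc-finger gene of the early embryo, rose (2.81, adjusted p = 0.0156), beside 3.85% and 3.38% of all genes. Zfp352 stood at 0.535 and 0.605 CPM in controls and 3.42 to 4.59 in dKD, where the filter asked for 1.32 CPM. It passed through dKD alone and so had to differ, and its call is no evidence. Btg1 and Zfp352 each kept the call in 4 of 6 fits that leave out a library, over which the number called was 0 to 5. In Klf5 KD against control edgeR called 0 of 19, of which 4 had an unadjusted p under 0.05 (8.47% of all genes) and 13 were above 0, with a median of 0.41 beside 0.00 over all genes.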
